A study of Mus musculus with 18 samples.

Results

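The genes described here encode the enzymes that build cholesterol and fatty acids and the proteins that control them, a set driven by the sterol regulatory element-binding proteins (SREBPs). Of 32 genes chosen by name, 28 of the 22180 genes measured had a probe set that carried their symbol alone, and the brightest such probe set over 18 arrays was used. They comprised 15 enzymes of sterol synthesis, 6 genes of sterol control and transport, and 7 enzymes of fatty acid synthesis. Idi1, Scd2 and Acsl3 shared their probe sets with another gene and were left out by that rule, and Acat2 was not analysed here. All 28 genes averaged above 5.47 on the log2 scale, the 95th percentile of 1394 olfactory and vomeronasal receptor genes, which served as a guide to background.

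C2C12, the cells on the arrays, are mouse myoblasts that can be made to fuse into myotubes by lowering serum. Cells were grown in 20% fetal bovine serum and moved to 2% horse serum. A lentivirus delivered a short hairpin RNA (shRNA) at 36 h, and cells were harvested 48 h later. Each of 3 groups had 6 arrays. The first received a scrambled shRNA as control, the second an shRNA that targets Nup210, which encodes a transmembrane subunit of nuclear pores, and the third an shRNA that targets Mef2c, a transcription factor of the muscle programme. All groups thus shared the cell line, the switch to horse serum and lentiviral infection. The comparisons ask how lipid synthesis genes stood in differentiating cells that received either targeting shRNA, relative to the scrambled shRNA and to each other. Whether replicate arrays stem from separate cultures is not in the labels, so the p-values reflect array-to-array spread that may be purely technical.

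Mef2c stood at 17.9% of its control level in the Mef2c shRNA arrays (two-sided exact permutation p = 0.00216, the smallest that 924 splits allow, and 0.00433 after Benjamini-Hochberg adjustment over the pair of targeted genes). Nup210, close to background, stood at 93.1% of control in the arrays labelled Nup210 shRNA, which did not exceed the spread between arrays (exact permutation p = 0.0801, also after adjustment), so those arrays are called by their label. All 10 myotube markers lay above background, with a mean log2 level of 11.62 to 11.69 on single control arrays, 11.49 to 11.61 on Nup210 shRNA arrays and 11.53 to 11.65 on Mef2c shRNA arrays. Of 9 adipocyte markers 5 lay above background (Lpl, Pparg, Cebpa, Plin1 and Retn, the last of these by little), and Adipoq, Fabp4, Lep and Cidec lay below it. Of the macrophage and the endothelial markers, 1 of 5 each lay above background. Because each array read a whole culture, fewer cells of a type and less RNA per cell cannot be told apart.

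Cholesterol and fatty acids are both built from acetyl-CoA. SREBPs are made as precursors held in the endoplasmic reticulum by Scap and Insig proteins. When membrane sterol is low, Scap escorts the precursor to the Golgi, where it is cut, and the released part enters the nucleus and activates the genes of synthesis and uptake. The product of Srebf2 acts mainly on sterol genes and that of Srebf1 mainly on fatty acid genes, with overlap, and nuclear factor Y, which binds the inverted CCAAT box, is a known partner at many of these promoters. Muscle cells that fuse make large amounts of new membrane, which draws on these pathways.

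Promoters are shown for 4 enzymes: Hmgcs1, the only member with a match to the sterol response element searched for, Ebp and Lss, the sterol enzymes furthest below control in the Nup210 and the Mef2c shRNA arrays, and Fasn, the only measured fatty acid enzyme whose window held an inverted CCAAT box. Each is the 250 bases before the start site in RefSeq (mouse build GRCm38.p6), written 5′ to 3′ on the gene's strand. Capitals mark TCACNCCAC and ATTGG on either strand, so that ATTGG on the other strand reads as its reverse complement; no match of the first motif overlapped the second.
Hmgcs1, chr13:119690101-119690350, plus strand: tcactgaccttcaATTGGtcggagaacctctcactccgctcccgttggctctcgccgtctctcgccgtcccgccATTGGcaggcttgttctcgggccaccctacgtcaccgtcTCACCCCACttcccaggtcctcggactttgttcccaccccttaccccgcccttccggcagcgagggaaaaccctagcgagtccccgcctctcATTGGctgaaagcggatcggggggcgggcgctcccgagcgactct
Ebp, chrX:8193513-8193762, minus strand: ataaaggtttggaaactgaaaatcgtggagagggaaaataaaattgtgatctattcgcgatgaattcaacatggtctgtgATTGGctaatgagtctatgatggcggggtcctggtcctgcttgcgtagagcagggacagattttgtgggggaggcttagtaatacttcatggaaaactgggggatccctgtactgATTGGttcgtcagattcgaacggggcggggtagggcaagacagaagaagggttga
Lss, chr10:76531355-76531604, plus strand: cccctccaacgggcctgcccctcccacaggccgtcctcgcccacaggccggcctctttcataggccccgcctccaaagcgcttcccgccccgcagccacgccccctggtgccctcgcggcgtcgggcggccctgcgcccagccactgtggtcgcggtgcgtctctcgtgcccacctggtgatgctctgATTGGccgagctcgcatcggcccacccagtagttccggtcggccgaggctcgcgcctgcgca
Fasn, chr11:120824548-120824797, minus strand: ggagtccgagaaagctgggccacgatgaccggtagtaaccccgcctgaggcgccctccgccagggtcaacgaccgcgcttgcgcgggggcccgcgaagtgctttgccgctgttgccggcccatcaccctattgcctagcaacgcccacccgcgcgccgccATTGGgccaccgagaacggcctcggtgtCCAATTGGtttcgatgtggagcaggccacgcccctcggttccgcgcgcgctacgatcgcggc

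RefSeq windows were used for 21 of the 28 measured genes. Fdps, Fdft1, Sqle, Stard4, Npc1, Scd1 and Fads1 had none used here and are named only. Member windows passed a filter by chromosome that the shares over all genes of the table did not. The Hmgcs1 match, TCACCCCAC, began 137 bases before the start site, and matches to this motif occurred in 1.22% of the 27025 genes of the table. An inverted CCAAT box was present in the window of 12 of 12 sterol enzymes, 3 of 4 genes of control and transport and 1 of 5 fatty acid enzymes, against 37.5% of all genes of the table. Dhcr7, with 3 alternative start sites, and Pmvk, with 2, each held it at only 1 of them. Counted by start site, the shares of the same sets were 80%, 57.1% and 20%, against 33.8% of all windows of the table. The 3 matches in Fasn included a pair that overlapped each other on opposite strands. A match is a description of letters and not evidence of binding.

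Sterol enzymes stood lower in both targeting shRNA groups, and all fatty acid enzymes measured were called with the Mef2c shRNA. In the Nup210 shRNA arrays 8 of 15 sterol enzymes, 3 of 6 genes of control and transport and 3 of 7 fatty acid enzymes fell, at a limma adjusted p under 0.05, where 5.11% of all genes fell, 3.05% rose and 8.16% did either. In the Mef2c shRNA arrays 12 of 15, 2 of 6 and 7 of 7 fell, where 6.42% of all genes fell, 4.34% rose and 10.8% did either. Among the 13017 genes above background, 13.1% and 17.2% were called in either direction in these comparisons. No member rose in either comparison. At an unadjusted limma p under 0.05, 1 was higher and 21 lower with the Nup210 shRNA. Of all 22180 genes, 2197 were higher and 2294 lower at that threshold. With the Mef2c shRNA 3 members were higher and 22 lower, where 2579 of all genes were higher and 2529 lower.

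The median log2 difference of the sterol enzymes was -0.23 with the Nup210 shRNA and -0.39 with the Mef2c shRNA. That of the fatty acid enzymes was -0.17 and -0.33. The medians over all genes were 0.015 and 0.020. Differences were small in absolute size: a called change of at least 1.5-fold was seen in 2 members with Nup210 shRNA, Ebp and Npc1, and in 4 with Mef2c shRNA, Lss, Cyp51, Insig1 and Fads2. The 2 comparisons share the control arrays, so their values are set side by side and not counted as separate evidence. The branches were described and not tested against each other, since the members were chosen with earlier results known.

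**Figure D1:**
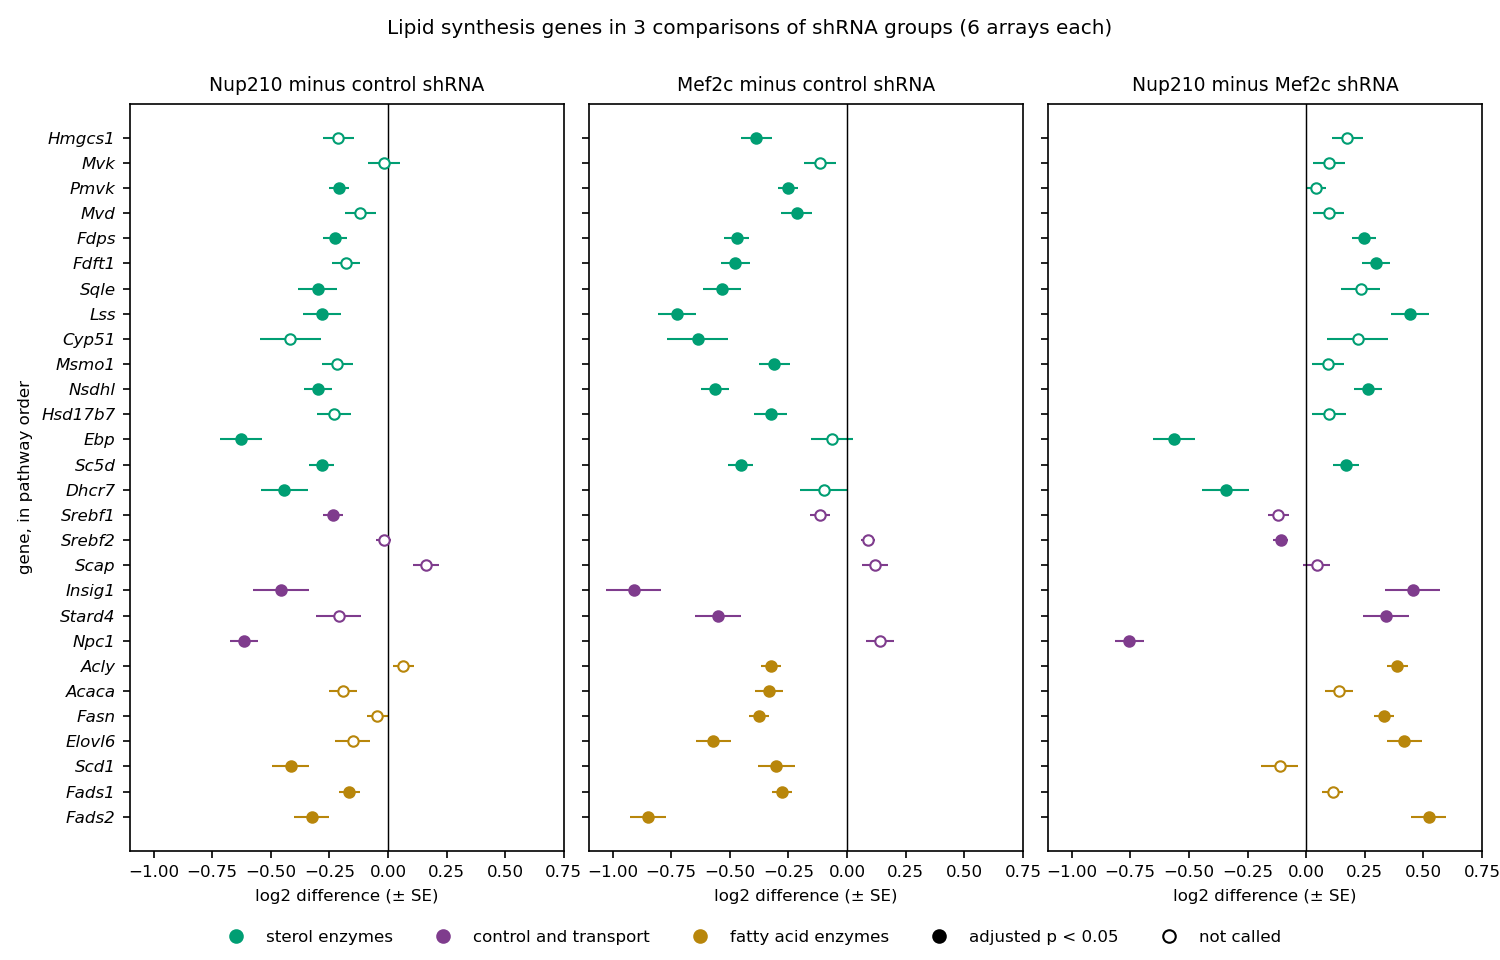
Log2 difference ± SE (horizontal axis) of each of the 28 genes (vertical axis, in pathway order) in 3 comparisons of 6 against 6 arrays; filled points were called at an adjusted p under 0.05. Most members lie left of 0 in the first 2 panels, Ebp, Dhcr7 and Npc1 lie left of 0 in the Nup210 panel and near 0 or right of it in the Mef2c panel, and the 7 fatty acid enzymes are all called in the Mef2c panel.

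With the Nup210 shRNA the largest falls among sterol enzymes were those of Ebp and Dhcr7, of the closing steps of the pathway. Sc5d, also of these steps, fell less. Ebp, the isomerase that shifts the ring double bond, ran from 10.35 through a median of 10.44 to 10.51 in control arrays and from 9.51 through 9.86 to 10.01 in Nup210 shRNA arrays, so the groups did not overlap. It stood at 0.648 of control (log2 difference -0.63 ± 0.089 SE, adjusted p = 0.000202). In the Mef2c shRNA arrays Ebp ran from 10.14 through 10.40 to 10.54, across the control range, with a difference of -0.06 (adjusted p = 0.743). Dhcr7, the reductase of the last step, ran from 9.90 through 10.02 to 10.11 in controls and from 9.15 through 9.63 to 9.79 in Nup210 shRNA arrays. The groups were again apart, and Dhcr7 stood at 0.736 of control (-0.44 ± 0.10, adjusted p = 0.00915). Its Mef2c shRNA arrays ran from 9.74 through 9.86 to 10.15 and overlapped the controls (-0.10, adjusted p = 0.624).

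Sqle, the squalene epoxidase that is a rate-limiting step, spanned 9.44 to 9.67 in controls (median 9.56), 8.98 to 9.38 in Nup210 shRNA arrays (median 9.32) and 8.75 to 9.23 in Mef2c shRNA arrays (median 9.03). The arrays of both targeting shRNAs lay wholly below the controls. The Sqle fall was -0.30 ± 0.083 with Nup210 shRNA (adjusted p = 0.0305). The other falls there were Nsdhl (-0.30), Sc5d (-0.28), Lss (-0.28), Fdps (-0.23) and Pmvk (-0.21). By step, 1 of 4 enzymes of the mevalonate steps, 2 of 3 from farnesyl diphosphate to squalene epoxide and 5 of 8 after it fell. Cyp51, a demethylase of lanosterol, stood at -0.42 ± 0.13 without passing (adjusted p = 0.0570, and 0.0269 with only the 2 groups fitted); its Nup210 shRNA arrays (9.11 to 9.69) lay just below its controls (9.70 to 10.09). Hmgcs1 (-0.21), Hsd17b7 (-0.23), Msmo1 (-0.22), Fdft1 (-0.18), Mvd (-0.12) and Mvk (-0.02) did not pass either.

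Several of these calls depended on few arrays. Lss lost its call with only the 2 groups fitted (adjusted p = 0.0561), with array weights (0.0799), and when Nup210 shRNA array 2, 4 or 5, or any control array but 3, was left out (0.0517 to 0.0867), and Sqle when Nup210 shRNA array 2, 4 or 5, or any control array but 5, was (0.0510 to 0.0744). In the other direction, Hmgcs1, Msmo1 and Fdft1 were called without Nup210 shRNA array 6 (0.0354, 0.0253 and 0.0404), Hsd17b7 without Nup210 shRNA array 1 (0.0439), and Hmgcs1, Msmo1, Cyp51 or Hsd17b7 without Mef2c shRNA array 3, 4 or 5 (0.0248 to 0.0471). Nup210 shRNA arrays 2, 4 and 5 had the lowest estimated weights of the 18 arrays. They also held the lowest sterol medians of their group. Without these 3 arrays, Ebp was the only sterol enzyme called (-0.42, adjusted p = 0.00483; 1.85% of all genes fell in that fit), while the branch median was -0.18. Without control arrays 4 and 6, 5 sterol enzymes fell (3.26% of all genes), and with dim genes left out 13 did (11.0% of the 13017 genes then tested).

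With the Mef2c shRNA the falls were larger in the middle of the pathway. Lss, the cyclase that forms lanosterol, ran from 8.41 through 8.59 to 8.76 in controls, from 8.13 through 8.32 to 8.49 in Nup210 shRNA arrays and from 7.70 through 7.87 to 8.12 in Mef2c shRNA arrays. The Mef2c shRNA arrays lay below every array of the other groups. Lss stood there at 0.605 of control (-0.73 ± 0.080, adjusted p = 9.25e-06). Cyp51 ran from 8.91 through 9.28 to 9.67 in these arrays, below all controls (-0.64 ± 0.13, adjusted p = 0.00305). Nsdhl, a dehydrogenase that helps remove methyl groups from the sterol ring, ran from 11.15 through 11.19 to 11.24 in controls and from 10.44 through 10.62 to 10.85 in Mef2c shRNA arrays. It stood at 0.676 of control (-0.56 ± 0.060, adjusted p = 6.05e-06).

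The remaining called sterol enzymes of the Mef2c shRNA arrays were Sqle (-0.53), Fdft1 (-0.48), Fdps (-0.47), Sc5d (-0.45), Hmgcs1 (-0.39), Hsd17b7 (-0.33), Msmo1 (-0.31), Pmvk (-0.25) and Mvd (-0.22). Fdps and Fdft1 make farnesyl diphosphate and squalene, and Hmgcs1 the precursor of mevalonate. By step, 3 of 4 mevalonate enzymes, 3 of 3 from farnesyl diphosphate to squalene epoxide and 6 of 8 later enzymes fell. Mvk, the mevalonate kinase, stood at -0.12 (adjusted p = 0.347) and with Ebp and Dhcr7 did not pass. The Mvd call was lost without Nup210 shRNA array 1, Mef2c shRNA array 2, 4 or 5, or control array 1, 2, 3, 4 or 6 (adjusted p from 0.0501 to 0.101), and without control arrays 4 and 6 together (0.234), where 11 sterol enzymes fell against 3.98% of all genes.

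**Figure D2:**
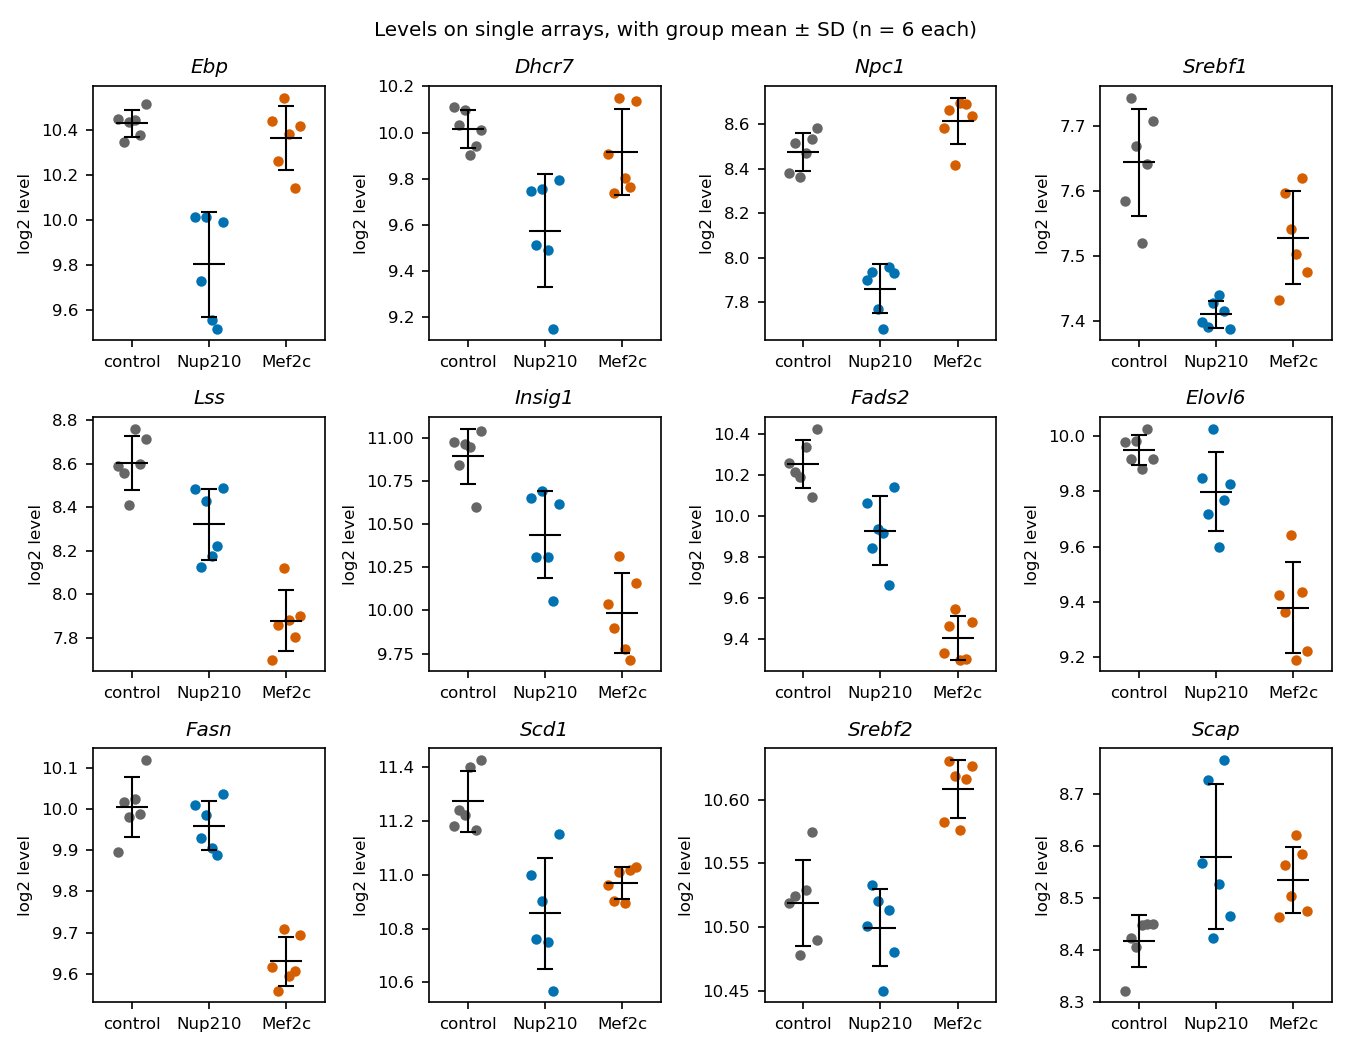
Log2 level (vertical axis) of 12 genes on each array of the control, Nup210 and Mef2c shRNA groups, with the mean ± SD of 6 arrays. Ebp, Dhcr7 and Npc1 are low in the Nup210 group alone, Lss, Insig1 and Fads2 step down from control through Nup210 to Mef2c, Fasn is low in the Mef2c group alone, and Srebf2 spans only 10.45 to 10.63 over all arrays.

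Of the genes of the SREBPs and their escort, Srebf1 alone was called against control, with the Nup210 shRNA. Srebf2 ran from 10.48 through 10.52 to 10.57 in controls, from 10.45 through 10.51 to 10.53 in Nup210 shRNA arrays and from 10.58 through 10.62 to 10.63 in Mef2c shRNA arrays. The Mef2c shRNA arrays lay just above all controls, by 0.09 ± 0.031, which did not pass (adjusted p = 0.0797). It passed on renewed quantile normalization (0.0285), with dim genes left out (0.0288) and under a trended robust prior (0.0182). Nup210 shRNA gave -0.02 for Srebf2 (adjusted p = 0.803). Srebf1 ran from 7.52 through 7.66 to 7.74 in controls and from 7.39 through 7.41 to 7.44 in Nup210 shRNA arrays, which were tightly grouped below all controls. It fell to 0.850 of control (-0.23 ± 0.043, adjusted p = 0.00194), and to the same extent without Nup210 shRNA arrays 2, 4 and 5 (-0.24, adjusted p = 0.0346). In Mef2c shRNA arrays Srebf1 ran from 7.43 through 7.52 to 7.62 and did not pass (-0.12, adjusted p = 0.102). It did without control array 4 (0.0477) and with dim genes left out (0.0471). A probe set reads the sum of transcripts from the alternative Srebf1 starts that it covers, so the isoforms were not separated.

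Scap, the sterol-sensing escort, ran from 8.32 through 8.44 to 8.45 in controls, from 8.42 through 8.55 to 8.77 in Nup210 shRNA arrays and from 8.46 through 8.53 to 8.62 in Mef2c shRNA arrays. Its differences of 0.16 ± 0.056 (adjusted p = 0.0892) and 0.12 (adjusted p = 0.215) did not pass. With Nup210 shRNA, Scap did pass in 3 other fits. These were without Nup210 shRNA array 3 (0.0375), with dim genes left out (0.0405) and under a trended robust prior (0.043). Its other, dim probe set gave 0.09 and 0.14.

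Insig1, the retention protein whose own gene is an SREBP target, had the largest fall of all members in the Mef2c shRNA arrays. It ran from 10.60 through 10.95 to 11.04 in controls, from 10.06 through 10.46 to 10.69 in Nup210 shRNA arrays and from 9.71 through 9.97 to 10.31 in Mef2c shRNA arrays. The Mef2c shRNA arrays lay below all controls and the Nup210 shRNA arrays overlapped them. Insig1 stood at 0.532 of control with Mef2c shRNA (-0.91 ± 0.12, adjusted p = 4.89e-05) and at 0.729 with Nup210 shRNA (-0.46 ± 0.12, adjusted p = 0.0210). The latter call did not survive leaving out array 5 of the Nup210 shRNA (0.0524) or array 6 of the controls (0.0509), nor leaving out Nup210 shRNA arrays 2, 4 and 5 together (-0.24, adjusted p = 0.387) or control arrays 4 and 6 together (adjusted p = 0.112).

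The 2 transport genes differed in opposite ways between the groups. Npc1, which carries cholesterol out of the lysosome, ran from 8.37 through 8.49 to 8.58 in controls, from 7.68 through 7.91 to 7.96 in Nup210 shRNA arrays and from 8.42 through 8.65 to 8.69 in Mef2c shRNA arrays. The Nup210 shRNA arrays lay below every other array. Npc1 stood there at 0.654 of control (-0.61 ± 0.060, adjusted p = 4.20e-06), with nearly the same difference without arrays 2, 4 and 5 (-0.61, adjusted p = 0.000197), and with Mef2c shRNA it did not pass (0.14, adjusted p = 0.161). A dim second Npc1 probe set, at a mean of 5.65, gave -0.06 in both comparisons. Stard4, a cytosolic sterol carrier, ran from 7.10 through 7.30 to 7.45 in controls and from 6.49 through 6.76 to 7.04 in Mef2c shRNA arrays, without overlap (-0.55 ± 0.097, adjusted p = 0.000890). Its Nup210 shRNA arrays ran from 6.81 through 7.11 to 7.27 and did not pass (-0.21, adjusted p = 0.229).

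Among fatty acid enzymes the desaturases fell in both groups, and the 4 enzymes that supply carbon and build the chain fell with the Mef2c shRNA and did not pass with the Nup210 shRNA. Of these 4, Acly, Fasn and Elovl6 differed between the groups when tested directly, and Acaca did not pass (adjusted p = 0.140). This grouping by step was made after the values were seen. Fads2, the delta-6 desaturase of polyunsaturated fatty acids, ran from 10.09 through 10.24 to 10.43 in controls, from 9.66 through 9.93 to 10.14 in Nup210 shRNA arrays and from 9.30 through 9.40 to 9.55 in Mef2c shRNA arrays. The Mef2c shRNA arrays lay below all others. Fads2 stood at 0.555 of control with Mef2c shRNA (-0.85 ± 0.075, adjusted p = 1.05e-06) and at 0.798 with Nup210 shRNA (-0.33 ± 0.075, adjusted p = 0.010). Scd1, the stearoyl-CoA desaturase that makes monounsaturated fatty acids, ran from 11.17 through 11.23 to 11.43 in controls, from 10.57 through 10.83 to 11.15 in Nup210 shRNA arrays and from 10.90 through 10.99 to 11.03 in Mef2c shRNA arrays. The arrays of both targeting shRNAs lay below the controls, by 0.42 ± 0.079 on the log2 scale for Nup210 shRNA (adjusted p = 0.00225) and by 0.30 for Mef2c shRNA (adjusted p = 0.0170).

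Fads1, the delta-5 desaturase, ran from 9.52 through 9.58 to 9.62 in controls, from 9.30 through 9.44 to 9.48 in Nup210 shRNA arrays and from 9.19 through 9.31 to 9.39 in Mef2c shRNA arrays. All arrays of both targeting shRNAs lay below the controls, with differences of -0.17 ± 0.043 (adjusted p = 0.0227) and -0.28 (adjusted p = 0.000288). Elovl6, which extends saturated chains, ran from 9.88 through 9.95 to 10.03 in controls and from 9.19 through 9.39 to 9.64 in Mef2c shRNA arrays (0.674 of control, -0.57 ± 0.074, adjusted p = 4.72e-05). Its Nup210 shRNA arrays, from 9.60 through 9.80 to 10.03, overlapped the controls and did not pass (-0.15, adjusted p = 0.259).

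Fasn, the fatty acid synthase, ran from 9.90 through 10.003 to 10.12 in controls, from 9.89 through 9.96 to 10.04 in Nup210 shRNA arrays and from 9.56 through 9.61 to 9.71 in Mef2c shRNA arrays. Only the Mef2c shRNA arrays were apart (0.771 of control, -0.38 ± 0.044, adjusted p = 1.54e-05), and Nup210 shRNA gave -0.05 (adjusted p = 0.635). Acly, which makes cytosolic acetyl-CoA from citrate, stood at -0.32 with Mef2c shRNA (adjusted p = 8.09e-05) and 0.06 with Nup210 shRNA (adjusted p = 0.466). Acaca, the acetyl-CoA carboxylase, stood at -0.33 (adjusted p = 0.000904) and -0.19 (adjusted p = 0.0521). With Nup210 shRNA none of these 4 enzymes passed limma's test, and 1 of them, Acaca, had an unadjusted p under 0.05.

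The Nup210 calls of this branch rested on few arrays. Fads1 lost its call when array 2 or 5 of the Nup210 shRNA or array 2 or 6 of the controls was left out (adjusted p from 0.0509 to 0.0570) and on renewed quantile normalization (0.0644), and Acaca gained one without Nup210 shRNA array 1 or 6 or Mef2c shRNA array 5 (0.0240 to 0.0496), with dim genes left out (0.0220) and under a trended robust prior (0.0233). Without Nup210 shRNA arrays 2, 4 and 5 none of the 7 was called (Scd1 0.0768, Fads1 0.216, Fads2 0.223), with a branch median of -0.084, and without control arrays 4 and 6 only Scd1 was (Fads2 0.0812, Fads1 0.110). The Scd1 call with Mef2c shRNA was lost without control arrays 4 and 6 (-0.23, adjusted p = 0.128).

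The 2 targeting shRNA groups were also compared with each other. Of the 28 genes 11 were higher in the Nup210 shRNA arrays, against 7.10% of all genes, and 4 were lower, against 6.93%; 14.0% of all genes differed either way. The higher genes were Lss, Fdft1, Fdps, Nsdhl and Sc5d of the sterol enzymes, Insig1 and Stard4, and Fads2, Elovl6, Acly and Fasn of the fatty acid enzymes. Ebp, Dhcr7, Npc1 and Srebf2 were lower. The median log2 difference was 0.17 over the sterol enzymes, 0.33 over the fatty acid enzymes and -0.0035 over all genes.

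Npc1 differed by -0.75 ± 0.060 (adjusted p = 1.30e-07) and Ebp by -0.56 ± 0.089 (adjusted p = 0.000204), each without overlap between the groups. Fads2 (0.52 ± 0.075, adjusted p = 8.04e-05), Acly (0.39 ± 0.044, adjusted p = 7.21e-06), Fasn (0.33 ± 0.044, adjusted p = 3.39e-05) and Lss (0.44 ± 0.080, adjusted p = 0.000744) did not overlap either, in the other direction. Of the 4 members that fell with Nup210 shRNA and were not called with Mef2c shRNA, Ebp, Dhcr7 and Npc1 differed between the groups and Srebf1 did not pass (-0.12, adjusted p = 0.0839). Of the 11 that fell with Mef2c shRNA and were not called with Nup210 shRNA, 5 differed in this test, namely Fdft1, Stard4, Acly, Elovl6 and Fasn.

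Some of these calls lay near the threshold. Dhcr7 (-0.34, adjusted p = 0.0280) lost its call without Nup210 shRNA array 2, 4 or 5 or Mef2c shRNA array 3 or 6 (0.0548 to 0.0699) or without Nup210 shRNA arrays 2, 4 and 5 (-0.15, 0.380). Srebf2 (-0.11) lost it without Nup210 shRNA array 4 or 6 or Mef2c shRNA array 2 (0.0505 to 0.0539), and Stard4 (0.34) without Nup210 shRNA array 1, 3 or 6 or Mef2c shRNA array 1 or 4 (0.0553 to 0.0620). Sc5d (0.17, adjusted p = 0.0419) lost it in 12 of 18 fits that each left out 1 array, namely Nup210 shRNA array 1, 3 or 6, Mef2c shRNA array 2, 4, 5 or 6 and control array 1 to 5 (0.0502 to 0.106). With only the 2 groups fitted, Dhcr7 (0.0782), Srebf2 (0.0765), Stard4 (0.0522) and Sc5d (0.111) lost their calls too. Median centring removed those of Srebf2 (0.0562) and Sc5d (0.0795), and array weights that of Dhcr7 (0.0628). Srebf2 also lost it without Nup210 shRNA arrays 2, 4 and 5 (0.0983), and Sc5d without control arrays 4 and 6 (0.0602). Calls were gained by Sqle without Nup210 shRNA array 5 or Mef2c shRNA array 1 or 3 (0.0193 to 0.0475), Hmgcs1 without Mef2c shRNA array 3 (0.0354), Acaca without Nup210 shRNA array 4 (0.0256) and Fads1 without Nup210 shRNA array 5 (0.0426). Array weights added calls of Acaca (0.0476), Hmgcs1 (0.0405) and Sqle (0.0370). Removal of dim genes, the trended robust prior, the replicate block and removal of Nup210 shRNA arrays 2, 4 and 5 each added some as well.

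The most extreme array of a group was often the same one across members. Among the 6 Nup210 shRNA arrays, array 5 held the lowest value of 13 of 15 sterol enzymes and of 5 of 7 fatty acid enzymes. Among the Mef2c shRNA arrays, array 3 held the highest value of 15 of 15 sterol enzymes and of 5 of 7 fatty acid enzymes, and array 4 the lowest of 7 and 5. In controls, array 6 held the highest value of 9 sterol and 4 fatty acid enzymes, and array 5 the lowest of 7 and 2. Some extremes recurred at the same number in another group. Nup210 shRNA array 6 held the highest value of 6 and 5, and Mef2c shRNA array 5 the lowest of 5 and 0. Mef2c shRNA array 6, in contrast, held the highest value of 0 and 2. The median of the 15 sterol enzymes relative to the control mean ran from -0.38 to -0.15 on single Nup210 shRNA arrays and from -0.56 to -0.20 on Mef2c shRNA arrays, against -0.07 to 0.09 on controls. That of the fatty acid enzymes ran from -0.34 to -0.10 and from -0.45 to -0.28, against -0.03 to 0.05. Genes that share arrays in this way are not independent measurements of a group difference.

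**Figure D3:**
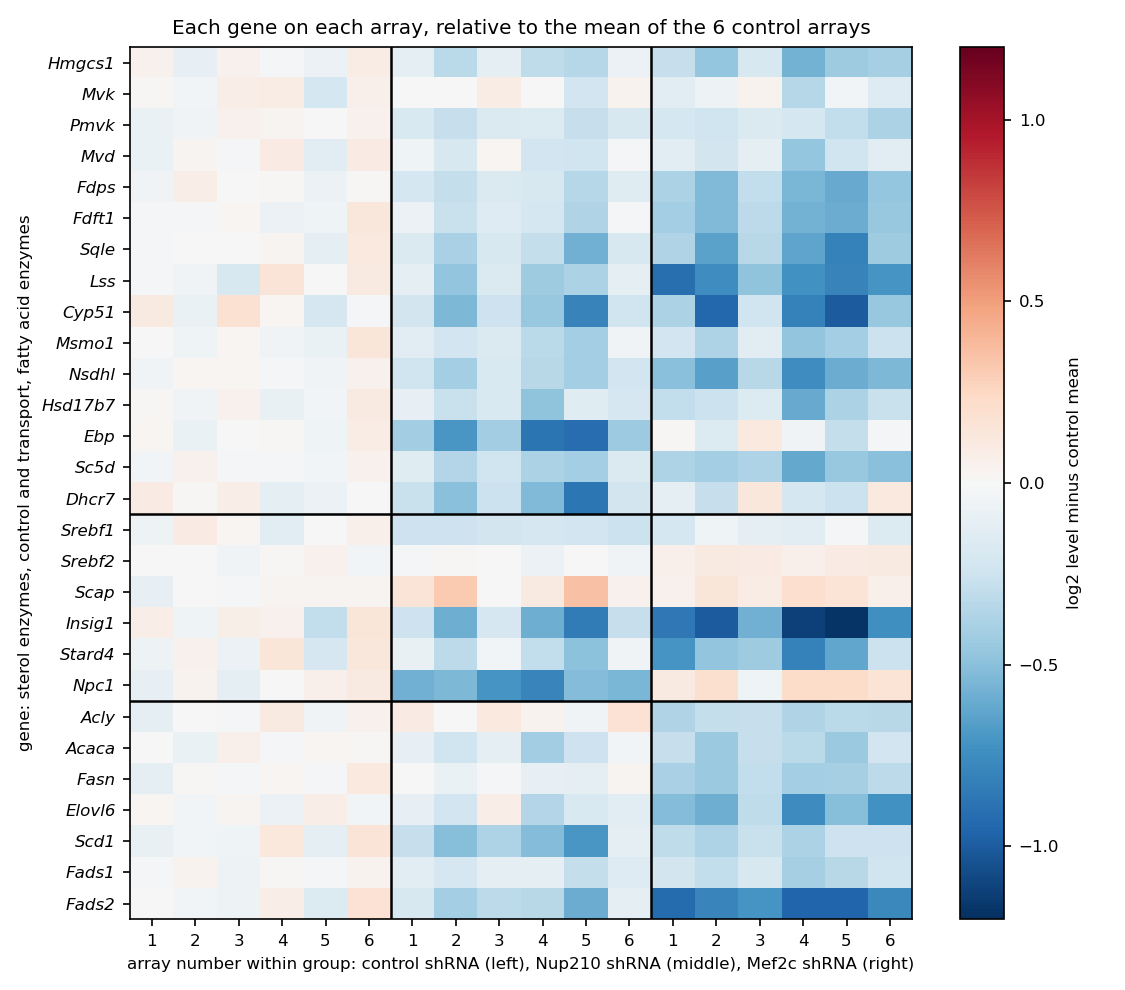
Log2 level minus the mean of the 6 control arrays (colour) for 28 genes (rows) on 18 arrays (columns, numbered within each group). Blue columns such as Nup210 shRNA array 5 and Mef2c shRNA array 4 run through most sterol enzymes, Mef2c shRNA array 3 is paler than its neighbours, and Ebp, Dhcr7 and Npc1 are blue in the middle block.

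Other genes of these pathways were taken from a list. Counts called in this list and those that follow stand beside the shares of all genes. These were 5.11% lower and 3.05% higher with Nup210 shRNA, and 6.42% lower and 4.34% higher with Mef2c shRNA. Of 11 other sterol genes measured, 1 rose and 1 fell with Nup210 shRNA, and 1 rose and 4 fell with Mef2c shRNA. Mbtps1, the site-1 protease that cuts SREBP precursors, rose by 0.17 ± 0.041 with Nup210 shRNA (adjusted p = 0.0152), its arrays (8.74 to 8.93) lying above the controls (8.57 to 8.72). Cyb5r3, a cytochrome b5 reductase, was the fall (-0.13, adjusted p = 0.0328). With Mef2c shRNA Ggps1, which makes geranylgeranyl diphosphate, fell from 9.17 to 9.23 in controls to 8.60 to 8.87 (-0.48 ± 0.052, adjusted p = 7.07e-06). Tm7sf2, a sterol reductase, fell by 0.32 (adjusted p = 0.0195).

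Of 17 other fatty acid genes, 1 rose and 4 fell with Nup210 shRNA, and 2 rose and 5 fell with Mef2c shRNA. Acsl4, an acyl-CoA synthetase that favours arachidonate, stood at 10.12 to 10.28 in controls, 9.75 to 9.93 in Nup210 shRNA arrays and 10.03 to 10.17 in Mef2c shRNA arrays. It fell with Nup210 shRNA (-0.40 ± 0.041, adjusted p = 7.76e-06) and not with Mef2c shRNA (-0.09, adjusted p = 0.199), and the groups differed (-0.31, adjusted p = 3.59e-05). Hacd2, a dehydratase of chain elongation, fell with Mef2c shRNA (-0.49 ± 0.047, adjusted p = 2.12e-06). Mid1ip1, an activator of acetyl-CoA carboxylase, fell in both, by 0.33 and 0.39 on the log2 scale, while its 2 dimmer probe sets gave -0.15 and -0.04 with Nup210 shRNA and -0.23 and 0.04 with Mef2c shRNA.

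Genes of sterol export and sensing, many of them targets of the liver X receptors, were set beside synthesis. Of 5 measured, none rose and 2 fell with Nup210 shRNA, and 2 rose and none fell with Mef2c shRNA. At an unadjusted limma p under 0.05, 3 were lower and 0 higher with Nup210 shRNA, and 5 higher and 0 lower with Mef2c shRNA. Of all 22180 genes, 2294 were lower and 2197 higher at that threshold with Nup210 shRNA. With Mef2c shRNA 2579 were higher and 2529 lower. Abca1, a cholesterol exporter, ran from 6.41 to 6.75 in controls and from 7.17 to 7.41 in Mef2c shRNA arrays (0.67 ± 0.082, adjusted p = 2.42e-05), and had a difference of -0.00048 with Nup210 shRNA. Abcg1, a related exporter, rose with Mef2c shRNA (0.25, adjusted p = 0.0229). Mylip, a ligase that marks lipoprotein receptors for breakdown, fell with Nup210 shRNA (-0.37 ± 0.051, adjusted p = 0.000161), as did the phospholipid-remodelling enzyme Lpcat3 (-0.34, adjusted p = 0.000324). Directly compared, 4 of the 5 were lower in Nup210 than in Mef2c shRNA arrays, against 6.93% of all genes.

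**Figure D4:**
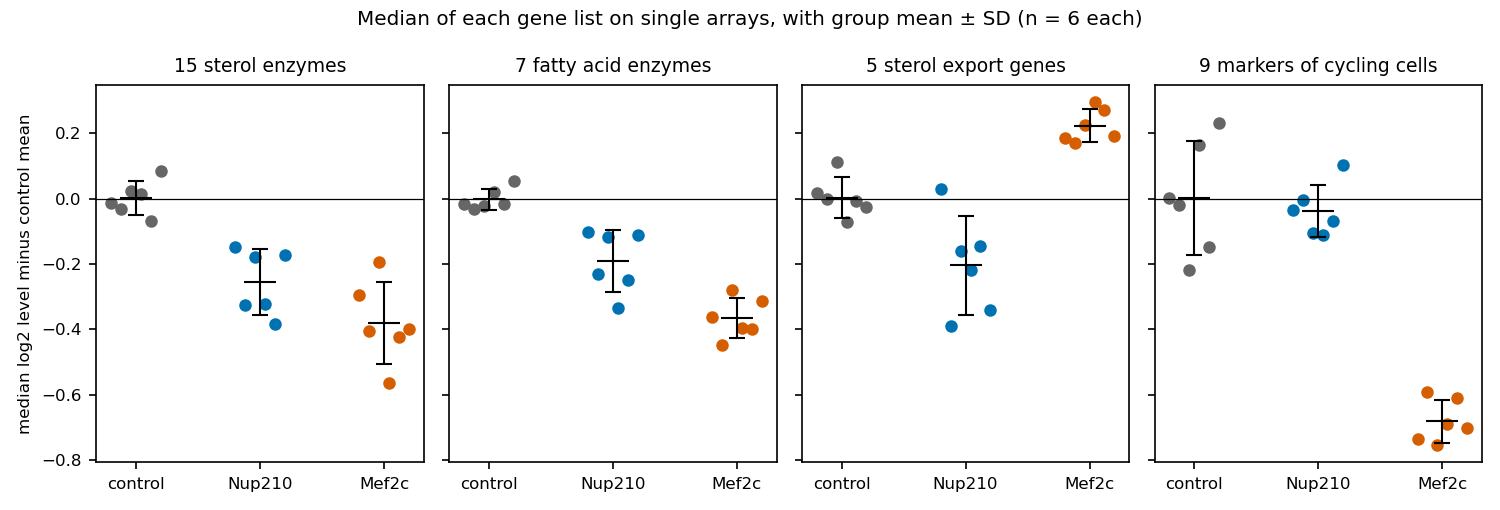
Median log2 level of 4 gene lists on single arrays relative to the control mean (vertical axis), with the mean ± SD of 6 arrays per group (horizontal axis). Sterol and fatty acid enzymes lie below control in both targeting shRNA groups, export genes lie between 0.17 and 0.30 in the Mef2c group, and markers of cycling cells lie between -0.76 and -0.59 there.

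Markers of cycling cells moved with the Mef2c group as well. Of 9 measured, 7 fell with Mef2c shRNA and none was called with Nup210 shRNA (limma; 0 at an unadjusted p under 0.05). Their mean log2 level ran from 6.65 to 6.93 on Mef2c shRNA arrays, 7.23 to 7.51 on Nup210 shRNA arrays and 7.19 to 7.62 on controls. Of 9 adipocyte markers, Lpl and Cebpa rose with Mef2c shRNA (0.93 and 0.37); the list's mean level ran from 5.43 to 5.59 on controls, 5.502 to 5.66 on Nup210 and 5.72 to 5.79 on Mef2c shRNA arrays. Of 8 markers of undifferentiated myoblasts, Myf5 and Id3 rose and Sdc4 fell with Nup210 shRNA, and Myf5 rose with Mef2c shRNA, with mean levels of 7.92 to 8.14 on controls, 8.003 to 8.28 on Nup210 and 8.05 to 8.14 on Mef2c shRNA arrays. Of the 10 myotube markers 4 fell with Nup210 shRNA and 2 with Mef2c shRNA. The part of these markers in the lipid gene differences was not tested.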

How the data were processed

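The authors deposited log2 expression values of each probe set on 18 one-colour arrays. RMA and Partek are named per the submitters' processing notes, with versions, settings and build not given in the sources used here. As a method, RMA evens out array distributions and compresses differences of dim genes. The platform annotation gave 1 symbol to 23521 of 41345 probe sets, several to 1814 and none to 16010. Entrez identifiers found 23328 of the former in RefSeq (GRCm38.p6), with 0 symbols changed. Listed genes with no probe set of their own symbol alone were not analysed here.

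A limma 3.58.1 model (R 4.3.3) of all 18 arrays held a mean for each group, with 15 residual degrees of freedom. Adjusted p-values are limma's, Benjamini-Hochberg over 22180 genes, and a gene was called, or rose or fell, at an adjusted p under 0.05. Targeted genes were compared by exact permutation tests. Within-group array correlations were 0.991 to 0.995. Array medians over the 22180 genes were 5.901 to 6.001, and the typical SE of a log2 difference was 0.0799. No scan batch was used. On simulated data over 22180 genes the fit recovered 37.3% of log2 changes of 0.25 and 73.1% of changes of 0.5 for Nup210 shRNA, with 4.90% of calls false. For Mef2c shRNA it recovered 25.4% and 80.6%, with 6.21% false. The recovered shares are of the genes given a change, a small part of those tested, so the comparisons are not ranked by them.

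Arrays with the same replicate number deviated together (r over 0.1) in 6 of 18 pairs, and r ran from -0.178 to 0.223. That cutoff has no reference value, so the count cannot decide whether the numbers mark shared handling. The main fit left the numbers out. A fit with them as a block is given below, and it changed several Nup210 shRNA calls. Other settings tried were 2-group fits, a block for replicate number, renewed quantile normalization, centring on medians, removal of dim genes, averaged probe sets, a trended robust prior, array weights, a threshold of 0.01, and leaving out arrays. The members, lists and doubted arrays were chosen with earlier results of these data known. Single-array values are given for Srebf1, Srebf2, Scap and Insig1, for the 3 largest called differences per branch and comparison with control, and, as ranges, for some of the 2 largest called genes of each other list.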

Additional observations from a re-analysis of the deposited data

Results flagged for a closer look

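Within 84 sets of 6 arrays (28 genes in 3 groups), 3 held an array that stood apart from the other 5 by more than Dixon's criterion of 0.625 of the range; chance flags about 1 in 20. Mvk stood at 7.45 on Nup210 shRNA array 5, against 7.67 on the nearest other array. Mvd stood at 7.51 on Mef2c shRNA array 4, against 7.73, and Scap at 8.32 on control array 1, against 8.41.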

How the results depend on the processing

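Of the numbers called and medians of the sterol and the fatty acid enzymes, those of the Mef2c shRNA against control and of the direct comparison stayed within 1.5 times, or within the spread between arrays, in all settings run. The sterol median of the direct comparison was 0.27 without Nup210 shRNA arrays 2, 4 and 5, in place of 0.17. For Nup210 against control shRNA, 8 sterol enzymes were called with all arrays, 13 with dim genes left out (fewer genes were tested), 5 without control arrays 4 and 6 and 1 without Nup210 shRNA arrays 2, 4 and 5. Fatty acid enzymes numbered 3, 1 without those controls and 0 without those Nup210 shRNA arrays. In the last fit their median was -0.084 in place of -0.17. Fewer arrays were fitted there, and the arrays left out were the lowest of their group. Relative to the control mean, the sterol median was -0.33, -0.32 and -0.38 on arrays 2, 4 and 5. It was -0.15, -0.18 and -0.17 on arrays 1, 3 and 6. The fatty acid median was -0.23, -0.34 and -0.25, against -0.10, -0.12 and -0.11. Why these arrays were lower was not tested. Leaving out each array in turn gave 6 to 11 sterol and 2 to 4 fatty acid enzymes, and medians of -0.26 to -0.22 and -0.20 to -0.15. For Mef2c shRNA these ranges were 11 to 12 and 7, with medians of -0.43 to -0.35 and -0.35 to -0.32. With the replicate number as a block, 12 sterol and 4 fatty acid enzymes were called for Nup210 shRNA (6.36% of all genes fell) and 12 and 7 for Mef2c shRNA (7.40%). For Nup210 shRNA the block added Cyp51, Fdft1, Hmgcs1, Hsd17b7, Msmo1 and Acaca and removed Lss (adjusted p = 0.0525). In 7 of 18 pairs the best of the other numbers correlated better with an array than its own number did. In the remaining pairs its own number was the best match. An array's own number was set there against the best of several others, so the count is not to be read against an even split. Arrays numbered 5 had r of 0.168, 0.200 and 0.223 in the 3 comparisons, and those numbered 2 had -0.022, -0.028 and -0.023. Whether the numbers mark shared handling was not tested. No member's called difference changed sign. The number of arrays and their signal over background limit the precision.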
